A study of Mus musculus with 6 samples.

Results

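The p53 pathway, the caspases and the Bcl2 family were followed in adult mouse retina as a set of 36 named genes: p53 and genes that respond to it, death-promoting and survival-promoting Bcl2 family members, caspases, mitochondrial death proteins, death receptor genes and inhibitor of apoptosis genes. Each gene was represented by the probe set that carried its symbol in the platform annotation and was brightest over all 6 arrays. Of the 36 genes, 33 had a named probe set, out of 18193 genes with one, and 23 of these passed a filter on low values, out of 11065 genes that did. The filter required a mean log2 intensity above 7 in either genotype. Trp53, Bax and Ripk1 were not analysed here.

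The samples were whole retinas of adult OC2-KO mice, which lack the transcription factor Onecut2 in the whole animal, and of wildtype littermates, OC2-WT, with 3 arrays per genotype and no other treatment or allele named in either group. The exact age, sex and strain of the animals are not given in the labels, and nothing in the labels ties an array to its own animal, so each p-value reflects the spread between these arrays alone. The 3 Onecut2 probe sets lie in sequence that the OC2-KO allele still transcribes, per the study's text, and were brighter on all OC2-KO arrays, so they do not check the genotype. The rod genes Gnat1 and Sag were at 14.7 to 17.0 log2 units on every array, as for a retina. Arrays with the same replicate number deviated together and are called pairs 1 to 3. Median intensity was 94.9 to 110 per array. Pair 3 had the largest excess of 3' over 5' actin signal, 2.95 (OC2-WT) and 3.39 (OC2-KO) log2 units against 0.71 to 1.41 on the other arrays, and its 2 arrays differed in Xist, the RNA of the inactive X chromosome, with the OC2-WT array at 14.53 and the OC2-KO array at 7.16, while both arrays of pair 1 were at 6.68 to 6.99 and both of pair 2 at 13.70 to 13.77.

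In cells under stress, the transcription factor p53 turns on genes that halt the cell cycle (Cdkn1a), genes that limit p53 itself (Mdm2) and genes that promote death (Bbc3, Bax, Fas). Death through mitochondria is set by the balance within the Bcl2 family. Pore-forming members such as Bax, Bak1 and Bok open the outer membrane, BH3-only members such as Bid and Bcl2l11 promote this, and Bcl2, Bcl2l1, Bcl2l2 and Mcl1 oppose it. Cytochrome c (Cycs) released through the pores joins Apaf1 and activates caspase 9, while caspase 8 is activated by death receptors such as Fas, and Xiap, Birc2 and Birc3 restrain caspases or their signalling. Loss of photoreceptors or other retinal neurons is commonly studied through these genes.

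p53 recognises pairs of a 10-base unit, here called the p53 decamer, which reads the same on both strands. The windows searched run from 250 bases before to 50 bases after each transcription start in RefSeq, build GRCm38.p6. A decamer that fits the consensus was present in 7 of 48 windows of the listed genes (14.6%) and in 2745 of 32851 windows of all genes (8.36%). A pair of decamers no more than 13 bases apart was present in the Cdkn1a window and in 24 of all windows (0.0731%). The sequences that follow are the upstream matches of measured genes, shown because the decamer is the letter pattern that p53 reads, with the decamer in capitals and 15 bases on either side, written 5' to 3' along the gene's strand. Cdkn1a is at chr17:29090891-29090952 on the plus strand, Ccng1 at chr11:40755447-40755486, Mdm2 at chr10:117710920-117710959 and Bmf at chr2:118544776-118544815, the last 3 on the minus strand.
Cdkn1a: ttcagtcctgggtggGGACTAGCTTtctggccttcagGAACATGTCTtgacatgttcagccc
Ccng1: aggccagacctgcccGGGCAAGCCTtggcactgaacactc
Mdm2: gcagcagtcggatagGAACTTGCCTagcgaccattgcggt
Bmf: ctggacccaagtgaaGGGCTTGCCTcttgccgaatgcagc
The first letter of the decamer lay 185 bases upstream of the start in Ccng1, 186 in Mdm2 and 213 in Bmf, and 73 and 51 bases upstream in Cdkn1a. A match says only that the letters are in the window.

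None of the 23 genes past the filter differed between OC2-KO and OC2-WT by limma at an adjusted p of 0.05, and 0% of all 11065 genes did. At an unadjusted p under 0.05, 0 of 23 were called by limma and 0 by the methods' t-test, against 0.985% of all genes by limma (0.732% higher and 0.253% lower) and 1.62% by the methods' t-test. The OC2-KO and OC2-WT arrays overlapped in all 23 genes, while 3.78% of all genes did not overlap, 1.95% higher and 1.83% lower in OC2-KO. With fewer arrays an overlap is less easily kept, and leaving out OC2-KO replicate 2 left 6 of the 24 listed genes then past the filter without one, against 16.5% of all genes. Leaving out OC2-KO replicate 3 left 0 of 23, against 9.44%. Leaving out OC2-KO replicate 1, or OC2-WT replicate 1, 2 or 3, left 2 of 23 or 24 each time, against 9.55%, 12.3%, 9.04% and 11.1% of all genes. The mean difference, OC2-KO minus OC2-WT, was above 0 for 16 of 23 genes and ran from -0.15 for Diablo to 0.58 for Bok on the log2 intensity scale, while 48.8% of all genes lay above 0. The median difference of the 23 genes was 0.07 and its median size was 0.097, beside -0.0048 and 0.115 for all genes. Because whole retinas were profiled, fewer cells of a type and less RNA per cell cannot be told apart in any of these values.

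These arrays bound the differences as well as giving them. The 95% intervals had a median half-width of 0.607 log2 units, close to 0.62 for all genes. For 20 of the 23 genes the whole interval on the brightest probe set lay between -1 and 1. There a difference of 2-fold or more in either direction fell outside it. The genes outside that range were Bok, Sesn2 and Cycs, and the interval ends of the 23 genes ran from -1.07 to 1.26. These intervals leave the pairs out of the fit. With the replicate number as a block, the SE fell from 0.47 to 0.19 for Sesn2 and from 0.42 to 0.15 for Cycs. For Bok it fell from 0.29 to 0.25. Dimmer probe sets of some of the 20 had wider intervals, such as -1.74 to 1.64 for Ccng1 (1450017_at) and -0.83 to 1.31 for Mcl1 (1448503_at). Others lay mostly to one side, such as -1.82 to 0.35 for Xiap (1450231_a_at) and -0.27 to 1.65 for Bcl2l11 (1435449_at). That of Xiap passed the filter only through OC2-WT and that of Bcl2l11 only through OC2-KO. For such genes the bound holds on the brightest probe set alone.

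**Figure D1:**
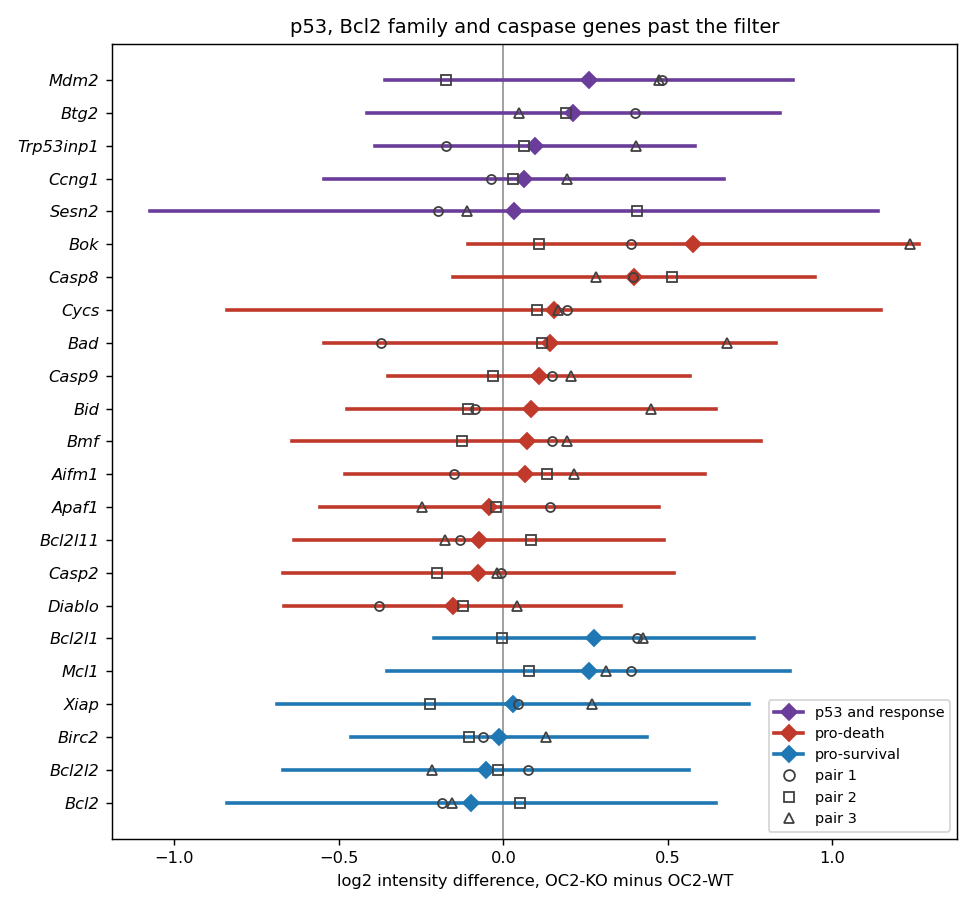
The log2 intensity difference between OC2-KO and OC2-WT (horizontal axis) for each of the 23 genes past the filter, with the 95% limma interval as a bar and the 3 pairs as open symbols. Every interval crosses 0, and Bok has the largest mean difference, 0.58.

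The genes that respond to p53 differed little. All 5 of the 7 listed genes of this group that passed the filter had means above 0, between 0.033 and 0.26, with a median of 0.098 and pair medians of -0.036, 0.063 and 0.19. This holds for the brightest probe sets, since Mdm2, Ccng1 and Sesn2 each had another probe set past the filter that lay below 0, the lowest at -0.21 in Ccng1. Mdm2, the ubiquitin ligase that p53 induces and that degrades p53, was at 10.02, 10.09 and 9.54 on the OC2-WT arrays and 10.50, 9.92 and 10.01 on the OC2-KO arrays. The genotypes overlapped, with pair 2 lower in OC2-KO, and the difference was 0.26 (95% interval -0.36 to 0.88). The other Mdm2 probe set past the filter lay at -0.14.

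Btg2, an antiproliferative gene induced by p53, was higher in OC2-KO in all 3 pairs, by 0.40, 0.19 and 0.05. Its mean difference was 0.21 with an interval from -0.42 to 0.84, and its levels ran from 10.01 to 10.44 in OC2-WT and from 10.15 to 10.84 in OC2-KO. The other Btg2 probe set past the filter, 1416250_at, lay at 0.029, with pair 2 at -0.50. Ccng1, a cyclin induced by p53, had a difference of 0.063 and Trp53inp1, a p53-induced nuclear protein, one of 0.098. Sesn2, which takes part in the response to oxidative and nutrient stress, had the widest interval, 0.033 with -1.07 to 1.14, and its pair levels were 8.60, 7.43 and 8.64.

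Cdkn1a, the p21 inhibitor of cyclin-dependent kinases, did not pass the filter. Its values were 6.11, 6.74 and 7.55 on the OC2-WT arrays and 4.85, 7.22 and 6.93 on the OC2-KO arrays. The genotypes overlapped and the pairs did not share a direction, with OC2-KO lower by 1.27 and 0.63 in pairs 1 and 3 and higher by 0.48 in pair 2.

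Of the 21 listed pro-death genes, 20 were measured and 12 passed the filter, with 8 above 0, 4 below and a median of 0.078. Bok, a pore-forming member, had the largest difference of the 23 genes. It was at 8.63, 8.48 and 7.77 on the OC2-WT arrays and 9.02, 8.58 and 9.01 on the OC2-KO arrays, so OC2-KO was higher in every pair while the lowest OC2-KO array stayed just below the highest OC2-WT array. The difference was 0.58 ± 0.29 (SE, n = 3 per genotype, interval -0.11 to 1.26, limma adjusted p = 1.00). Pair 3, whose OC2-WT array was low, gave 1.24 and the others 0.39 and 0.11, and without pair 3 the difference was 0.25. The arrays of pair 3 also differed in Xist, and the part of this in the Bok difference was not tested. Bak1, the other pore-forming member measured, lay below the filter at 5.98 to 6.58 on all arrays.

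The BH3-only genes that passed the filter lay close to 0. Bad differed by 0.14, Bid by 0.085 and Bmf by 0.071, each with pairs on both sides of 0. Bcl2l11, which encodes Bim, lay at -0.075 on its brightest probe set and at up to 0.69 on another, 1435449_at, which passed the filter only through its OC2-KO mean and where the OC2-WT array of pair 3 was at 5.86 and the other 5 arrays at 7.21 to 7.65. Bbc3, which encodes the p53-induced protein PUMA, was under the filter, at 3.50 to 6.03 on the OC2-WT arrays and 5.38 to 6.31 on the OC2-KO arrays.

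Bik, a BH3-only gene, lay below the filter on all 3 of its probe sets and held the only probe sets of the listed genes whose genotypes did not overlap. Of the 83 probe sets of the listed genes 2 did not overlap, against 4.86% of all probe sets with 1 symbol and 3.67% of those below the filter that were higher in OC2-KO. By gene, on the brightest probe set, 1 of the 10 listed genes below the filter did not overlap, against 7.23% of all genes below it, or 4.31% counting the higher ones alone. On 1420363_at the values were 3.23, 4.23 and 1.43 on the OC2-WT arrays and 5.16, 5.30 and 6.23 on the OC2-KO arrays. On 1449836_x_at they were 2.11, 2.72 and 2.23 against 4.65, 5.88 and 5.82. The third, 1420362_a_at, did not share this, at 2.09, 4.55 and 6.27 on the OC2-WT arrays and 6.04, 5.81 and 0.41 on the OC2-KO arrays.

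**Figure D2:**
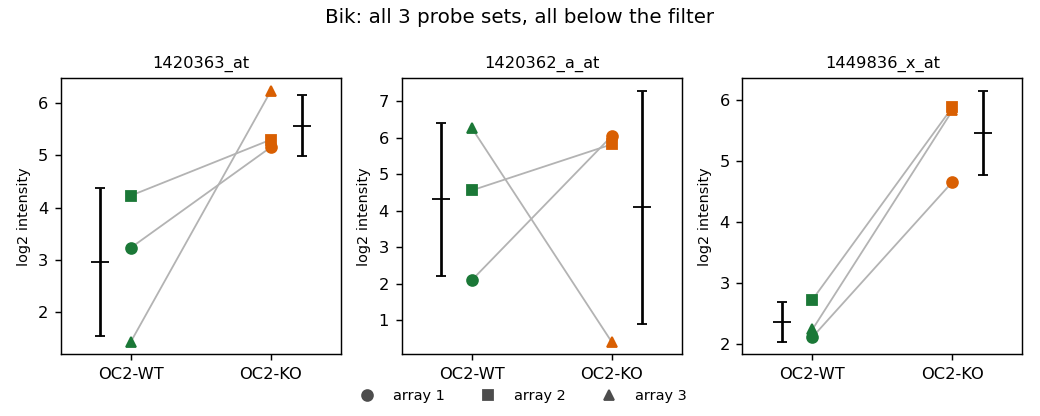
Log2 intensity of Bik on each array for its 3 probe sets, with a line for each replicate number and black bars giving the mean ± SD of 3 arrays. OC2-KO lies above OC2-WT on 1420363_at and 1449836_x_at and overlaps it on 1420362_a_at, and all 18 values are under 7.

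Among the apoptotic caspases, Casp8, the initiator caspase of death receptors, was higher in OC2-KO in all 3 pairs. It was at 6.71, 6.45 and 7.02 on the OC2-WT arrays and 7.11, 6.97 and 7.30 on the OC2-KO arrays, close to the filter, which it passed only through its OC2-KO mean. The genotypes overlapped by a narrow margin, and the difference was 0.40 ± 0.23 (SE, n = 3 per genotype, interval -0.15 to 0.95, limma adjusted p = 1.00). With the replicate number as a block, Casp8 was the 1 gene of the 23 at an unadjusted limma p under 0.05, against 3.53% of all genes, and its adjusted p was 0.999.

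Markers of microglia, the retina's resident immune cells, also had higher means in OC2-KO, though none passed the adjusted threshold. Of 10 listed markers 9 were measured and 6 passed the filter, with means above 0 and a median difference of 0.53, although Tmem119 passed only through its OC2-KO mean. Tyrobp, a signalling adaptor of myeloid cells, differed by 1.05 and was the 1 marker of the 6 whose genotypes did not overlap, against 3.78% of all genes. It was also the 1 marker at an unadjusted limma p under 0.05, against 0.985% of all genes. With the replicate block, the fit that put Casp8 under 0.05, 4 of the 6 were, Tmem119 among them, against 3.53%. Tmem119, like Casp8, had passed the filter only through OC2-KO, the genotype where it was higher, so neither adds support for a difference. The lowest adjusted limma p of the 6 was 0.99997 without the block and 0.999 with it. The summed intensity of the 9 markers was 2589 to 3129 on the OC2-WT arrays and 3495 to 4379 on the OC2-KO arrays, and none of the markers was at 0. Ctss and Csf1r, the brightest, weigh most in this sum, and the genotypes overlapped on each. How often sums of other gene sets do not overlap was not counted. Trem2, Aif1 and P2ry12 were below the filter, with P2ry12 at a difference of 0.040 and lower in OC2-KO on most pairs. Some markers of other cell types were higher too. Gfap, a glial marker, differed by 1.40 and its genotypes did not overlap, while the other glial markers ran from -0.17 to 0.14. Of the endothelial markers past the filter, Cldn5 differed by 0.47, higher in all 3 pairs, and Kdr by 0.11. The part of microglia or of these other cells in the Casp8 difference was not tested.

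Casp9, the caspase of the mitochondrial route, was at 9.01, 9.10 and 9.10 on the OC2-WT arrays and 9.15, 9.07 and 9.31 on the OC2-KO arrays. The genotypes overlapped and the difference was 0.11 (interval -0.35 to 0.57). Casp2, a caspase linked to DNA damage signalling, was the only one of the 23 genes that was lower in OC2-KO in every pair, with a mean difference of -0.076. The inflammatory caspases Casp1 and Casp4 and the apoptotic caspase Casp6 were below the filter.

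The mitochondrial death proteins gave no common direction. Cycs was high on every array, at 13.49, 12.44 and 13.45 on the OC2-WT arrays and 13.68, 12.54 and 13.62 on the OC2-KO arrays. The gap between pair 2 and the others was far wider than the difference between genotypes, which was 0.15 (interval -0.84 to 1.15) with 0.19, 0.10 and 0.17 in the 3 pairs. Its other probe sets past the filter ran from -0.26 to 0.063, each with pairs on both sides of 0. The lowest, 1445484_at, passed only through its OC2-WT mean. Apaf1 differed by -0.042, Aifm1, which encodes apoptosis-inducing factor, by 0.066, and Diablo, an antagonist of the inhibitors of apoptosis, by -0.15. The death receptor gene Fas was below the filter at 4.20, 1.52 and 5.38 on the OC2-WT arrays and 5.37, 3.79 and 5.47 on the OC2-KO arrays, which overlapped. Ripk3, a kinase of necroptosis, was also below it.

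**Figure D3:**
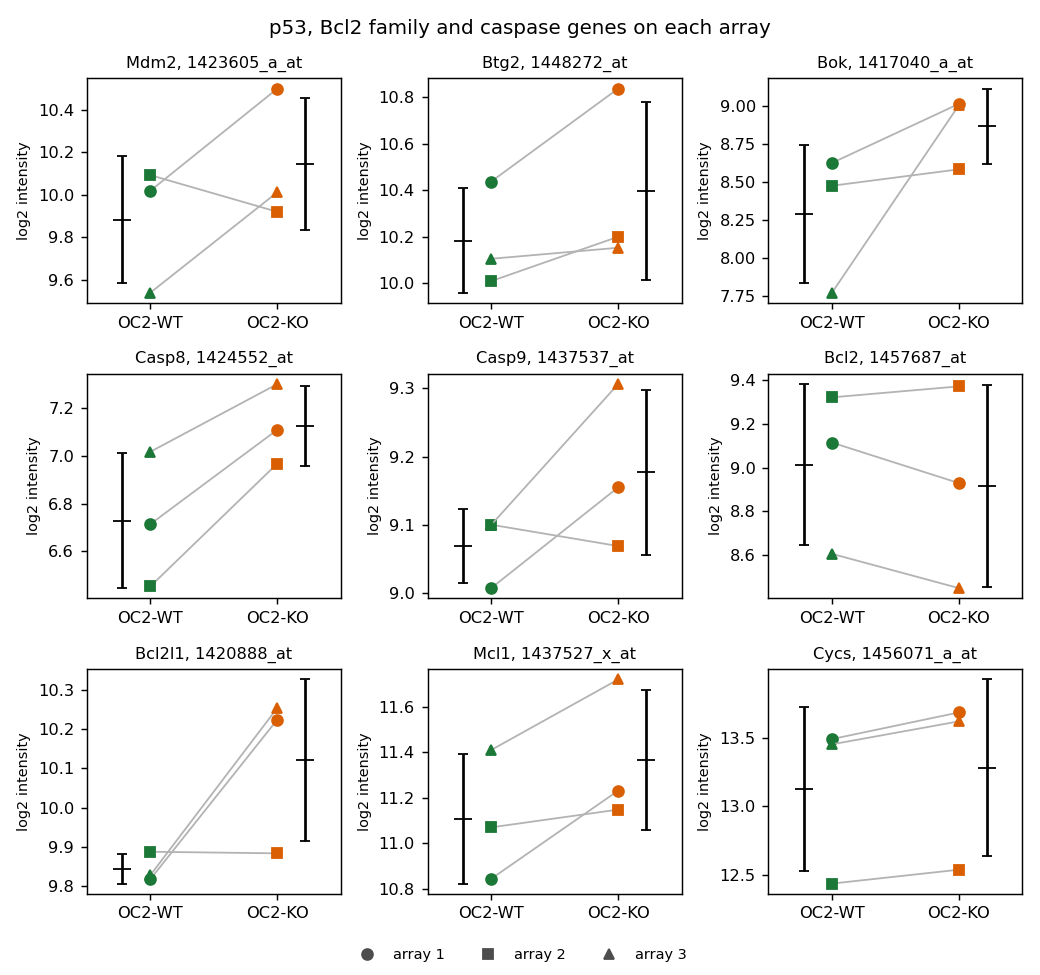
Log2 intensity on each array (vertical axis, scaled to each gene) of 9 genes on their brightest probe sets, with a line for each replicate number and black bars giving the mean ± SD of 3 arrays. The genotypes overlap in all 9 panels, and Btg2, Bok, Casp8, Mcl1 and Cycs are higher in OC2-KO in each of the 3 pairs.

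All 7 pro-survival genes were measured and 6 passed the filter, 3 above 0 and 3 below, with a median of 0.0083. Bcl2 itself was at 9.11, 9.32 and 8.61 on the OC2-WT arrays and 8.93, 9.37 and 8.45 on the OC2-KO arrays. The arrays were ordered alike in both genotypes, and the difference was -0.097 (interval -0.84 to 0.65).

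Bcl2l1, which encodes Bcl-xL, a survival factor of neurons, was at 9.82, 9.89 and 9.83 on the OC2-WT arrays and 10.22, 9.88 and 10.25 on the OC2-KO arrays. Pairs 1 and 3 were higher in OC2-KO and pair 2 was not, and the difference was 0.28 (interval -0.21 to 0.76). Mcl1, a short-lived survival protein, was at 10.84, 11.07 and 11.41 on the OC2-WT arrays and 11.23, 11.15 and 11.72 on the OC2-KO arrays. It was higher in all 3 pairs, by a mean of 0.26 (interval -0.35 to 0.87), and all 6 of its probe sets had means above 0, from 0.097 to 0.26.

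Bcl2l2, which encodes Bcl-w, gave different readings on its probe sets. The brightest lay at -0.053. On the dimmer 1451029_at the OC2-WT arrays read 7.69, 6.95 and 7.02, and the OC2-KO arrays 8.0, 7.75 and 7.49. OC2-KO was higher in all 3 pairs, by a mean of 0.52, and the genotypes overlapped. Of 11 listed genes with over 1 probe set past the filter, 8 had probe sets on both sides of 0.

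Xiap, which inhibits caspases by direct binding, had 6 probe sets past the filter. The brightest, 1437533_at, was at 14.09, 13.51 and 13.83 on the OC2-WT arrays and 14.14, 13.29 and 14.10 on the OC2-KO arrays, a difference of 0.029 (interval -0.69 to 0.75). On the other five the difference ran from -0.10 to -0.74, but 4 of them passed the filter only through their OC2-WT mean, so that they had to be lower in OC2-KO, and the probe set left below the filter, 1450232_at, lay at 0.049. On the lowest of them, 1450231_a_at, the values were 8.14, 7.06 and 6.59 on the OC2-WT arrays and 7.18, 6.25 and 6.16 on the OC2-KO arrays, lower in OC2-KO in each pair while the genotypes overlapped. On 1421394_a_at the difference was -0.54, again lower in each pair. Of the 46 probe sets of the listed genes past the filter, 0 had an unadjusted limma p under 0.05 without the replicate block and 4 with it, these probe sets of Xiap with Casp8 and the dimmer one of Bcl2l2, against 4.11% of all probe sets with 1 symbol. Both probe sets of Xiap had passed the filter only through OC2-WT and Casp8 only through OC2-KO, the genotype where each was higher, so this count is no support for a difference. Their lowest adjusted p with the block was 0.999. Values on both of these Xiap probe sets were lowest in pair 3, the pair with the largest 3' excess of actin signal, whose part in them was not tested. Of the other inhibitors, Birc2 had the narrowest interval of the 23 genes, -0.013 with -0.46 to 0.44, and Birc3 was below the filter.

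**Figure D4:**
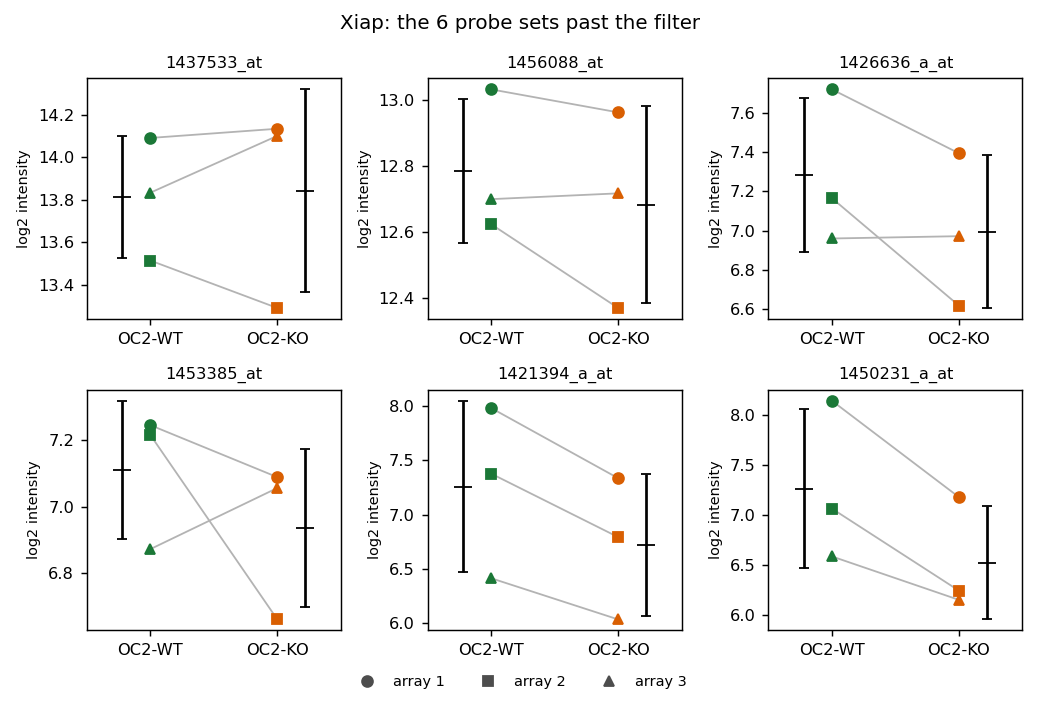
Log2 intensity of Xiap on each array for its 6 probe sets past the filter, with a line for each replicate number and black bars giving the mean ± SD of 3 arrays. On 1437533_at the genotypes coincide, while on 1421394_a_at and 1450231_a_at each pair is lower in OC2-KO and the genotypes still overlap.

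Across the 23 genes, the pairs mostly differed more than the genotypes. The range of the 3 pair levels exceeded the genotype difference in 20 of 23 genes (87.0%), beside 91.9% of all genes, and its median was 0.484 log2 units, beside 0.480. Pair 2 held the lowest level in 10 of 23 genes (43.5%) and in 26.9% of all genes. The summed intensity of the 4 rod markers measured was also lowest in pair 2, at 109442 (OC2-WT) and 100728 (OC2-KO) against 144596 to 377076 on the other arrays, and its part in these levels was not tested. Of the 23 genes, 5 were higher in OC2-KO in all 3 pairs, namely Btg2, Bok, Mcl1, Casp8 and Cycs, against 10.9% of all genes, and 1 was lower in all 3, against 12.1%. The 5 include a p53 response gene, pro-death genes and a survival gene. The count is for the brightest probe sets. Btg2, Mcl1 and Cycs each had another past the filter with pairs on both sides of 0. Casp8 passed the filter only through its OC2-KO mean, which favours a higher reading. The median difference of the pro-death genes was 0.067, 0.031 and 0.20 in pairs 1 to 3, and that of the pro-survival genes 0.059, -0.0098 and 0.20.

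**Figure D5:**
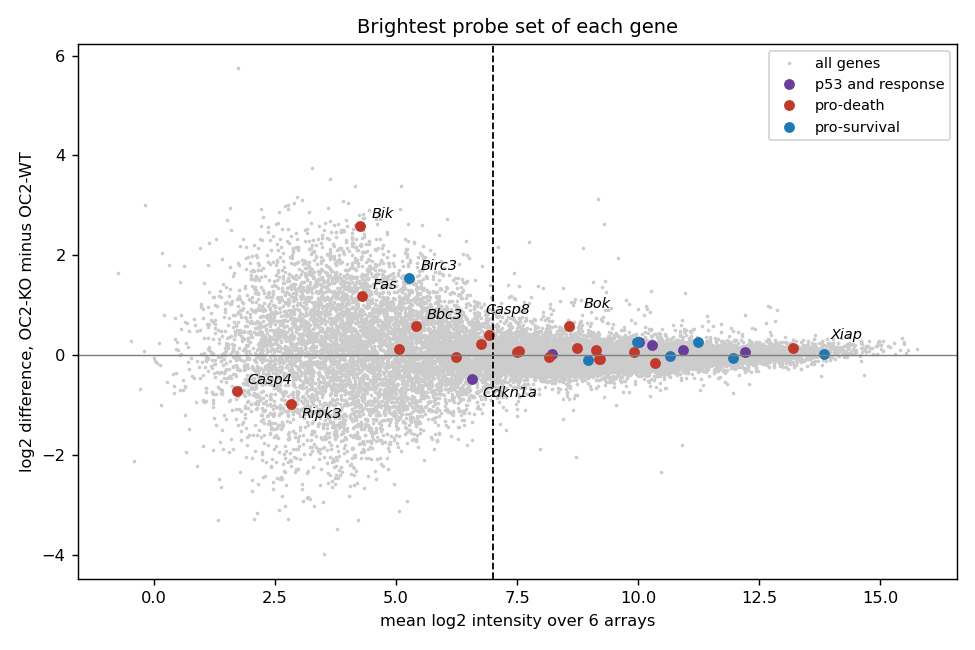
Log2 difference between OC2-KO and OC2-WT (vertical axis) against the mean log2 intensity over 6 arrays (horizontal axis) for the brightest probe set of each gene, with the 33 measured genes coloured by role and the dashed line at 7. The listed genes right of the line lie between -0.15 and 0.58, and Bik, the highest of the listed genes at 2.60, lies left of it, where the grey points scatter widely. Casp8 also lies just left of the line, and passed the filter through its OC2-KO mean.

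Further genes of both routes, from lists of other p53 targets and other cell death genes, gave no call by limma. Of 29 other p53 target genes 27 were measured and 17 passed the filter, 8 above 0 and 9 below, with a median of -0.0070, 0 of them at an unadjusted limma p under 0.05 and 0 by the methods' t-test. Those with the smallest p were Zmat3 at -0.31, Plk2 at 0.44, Mdm4 at -0.22 and Polk at 0.17. Plk2, a kinase of the stress response, was higher in OC2-KO in all 3 pairs. It was the 1 gene of these 17 at an unadjusted limma p under 0.05 with the replicate block, against 3.53% of all genes.

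Of 28 other cell death genes 25 were measured and 17 passed the filter, 10 above 0 and 7 below, with a median of 0.14 and 0 at an unadjusted limma p under 0.05. Faim2, which protects neurons from Fas-mediated death, was the 1 gene of these 17 whose genotypes did not overlap, against 3.78% of all genes (1.83% lower). It was at 10.40, 10.55 and 10.38 on the OC2-WT arrays and 10.06, 10.18 and 10.19 on the OC2-KO arrays, lower on every OC2-KO array, with a difference of -0.30, and it was the 1 gene of this list called at an unadjusted p under 0.05 by the methods' t-test, which called 1.62% of all genes. The study lists it among its genes lower in OC2-KO from these same arrays, so this is no independent evidence. Fadd, the adaptor between Fas and caspase 8, differed by 0.35, Ngfr by 0.22 and Cflar, an inhibitor of caspase 8, by 0.17.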

How the data were processed

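Total RNA of adult retinas was amplified, labelled and hybridised by the authors to Affymetrix Mouse Genome arrays. The deposited values are linear intensities, background-adjusted and normalized by the authors with MAS5 (version not given in the sources used here) and scaled to a 2% trimmed mean of 500 per array, which hides any difference common to all genes. Of 45101 probe sets, 34945 had 1 symbol in the platform annotation, 932 had several and 9160 had none, with 64 control probe sets left out. Of those with 1 symbol, 34741 matched a gene table of GRCm38.p6, which changed 0 symbols.

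After log2, the 21176 probe sets with a mean above 7 in either genotype entered a linear model (limma 3.58.1, lmFit and eBayes, R 4.3.3, 6 arrays, 4 residual degrees of freedom, two-sided, Benjamini-Hochberg over all of them, threshold 0.05). The smallest adjusted p was 0.210. The script was tested on simulated data. The number of arrays limits the precision.

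Genes and lists were chosen with earlier results of these data known. All 36 listed genes could be named, with values on each array for those with non-overlapping genotypes, a p under 0.05 or a difference above 0.5 and for 10 central genes, and for the 4 smallest p of each further list.

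The labels do not say that a replicate number marks a litter. Deviations from the genotype means correlated at 0.576 to 0.590 for arrays of the same number, so the numbers were taken as pairs. The correlations were -0.429 to -0.135 otherwise. These are no added evidence, because deviations from a mean cancel out within a genotype. The alternatives were the replicate block, intensity trend, array weights, t-tests, other filters, a floor, other scalings, other choices of probe set and leaving out each array.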

Additional observations from a re-analysis of the deposited data

Results flagged for a closer look

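Bik was singled out because it lies outside the genes tested, below the filter, while all OC2-KO arrays lay above all OC2-WT arrays on a pair of its probe sets. The difference was 2.60 log2 units on 1420363_at and 3.10 on 1449836_x_at, and -0.22 on 1420362_a_at, where the genotypes overlapped. Among genes below the filter, 4.31% were higher on every OC2-KO array.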

How the results depend on the processing

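No listed gene passed the threshold under any of the 20 alternatives, with a lowest adjusted limma p of 0.998. Of 449 values of the 23 genes under alternatives, 446 lay within 1 SD of the reported value, a count largely fixed beforehand. Other filters, the intensity trend, the replicate block and the t-tests leave a mean difference unchanged. Leaving out 1 array cannot shift it by 1 SD. The values further off were Trp53inp1 at -0.056 and Birc2 at -0.084 without replicate 3, and Bcl2l11 at 0.39 when probe sets of a gene were averaged. In 46 the sign differed, and 7 of 23 genes kept theirs in every alternative that held them, Mdm2, Bok, Bcl2l1, Mcl1, Casp8 and Casp9 above 0 and Diablo below. The count of listed genes at an unadjusted limma p under 0.05 was 1 with the replicate block (Casp8), against 3.53% of all genes. It was also 1 with no filter (Bik), with array weights (Casp8) and with the replicate block and intensity trend (Bok). The share of all genes was not counted for these other settings, so these counts are no support for a difference. Nor is the count with the replicate block, since Casp8 passed the filter only through its OC2-KO mean. The count whose genotypes did not overlap was 1 with no filter, namely Bik, while 7.23% of all genes below the filter did not overlap. It was 0 to 6 when 1 array was left out (all genes, 9.04% to 16.5%). It was 6 without OC2-KO replicate 2 (16.5%) and 3 without both arrays of replicate 3 (18.3%). With the replicate block, 0 probe sets passed the threshold, and with an intensity trend as well 6 did. Other p53 targets at an unadjusted p under 0.05 numbered 1 (Plk2) in both blocked fits, against 3.53% of all genes without the trend. Other cell death genes numbered 1 (Faim2) by the methods' t-test, against 1.62% of all genes, and 1 by the unequal-variance t-test. The share of all genes was not counted with the trend or with unequal variances. Leaving out 1 array put the median difference between 0.018 and 0.31 for p53 response genes, between -0.0087 and 0.11 for pro-death genes and between -0.055 and 0.17 for pro-survival genes, with the highest of each without OC2-KO replicate 2. The cause of these shifts was not tested. Values near the background, below the filter, have no reliable fold.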
